A study of Mus musculus with 60 samples.

Results

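Gene expression was compared between mouse embryonic stem cells of an MCM2-2A line and of a line with wild-type MCM2 after 24 h of retinoic acid (RA). The comparison rests on 6 of the 48 RNA-seq libraries of the RA time course, 3 of Ctrl MCM2-2A and 3 of Ctrl, chosen by their labels. All 6 came from E14JU cells of 129/Ola background that carry the POLE4-dTAG allele, a fusion of POLE4 to a degron. Every culture received the solvent DMSO for 24 h in serum and LIF, without the degrader, and was then moved to medium with RA and without LIF for 24 h (T24). Ctrl is POLE4-dTAG with wild-type MCM2, and Ctrl MCM2-2A is POLE4-dTAG with the MCM2-2A mutation, labelled as clone 2. The mutant line is 1 clone. By the study's methods the POLE4-dTAG allele was put into each background separately, with individual clones picked. The mutation and anything else that sets the 2 lines apart therefore cannot be told apart. In which of the lines a difference arose cannot be told either. The same pair of lines before RA (T0), and the same pair given the degrader dTAG in place of DMSO (dPOLE4), shared no library with the main comparison. Cells were grown on gelatin.

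MCM2 is a subunit of the replicative helicase. Its amino-terminal tail binds histones H3-H4 released ahead of the replication fork, which lets parental histones pass to the lagging strand, and the MCM2-2A substitutions weaken that binding. RA enters the nucleus, binds RAR-RXR receptor pairs at response elements and switches on genes such as Cyp26a1, Hoxb1 and Rarb, while embryonic stem cells leave the pluripotent state. The comparison addresses how gene expression in the histone recycling mutant differs from that of Ctrl during this transition.

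Total counts lay between 19901789 and 29229306 in the Ctrl libraries and between 11967264 and 24827756 in the Ctrl MCM2-2A libraries. Levels are CPM, each count over the library's TMM-scaled total and multiplied by 1e6, given for replicates 1, 2 and 3 in that order or as mean ± SD (n = 3). A gene or repeat subfamily, together called features, was called DE when its adjusted p in edgeR's quasi-likelihood test was below 0.01 and its log2 fold change (Ctrl MCM2-2A over Ctrl) was larger in size than 0.58. Gene positions refer to mm10. Markers of embryonic stem cells (Pou5f1, Sox2, Nanog and Sall4) summed to between 1209 and 1268 CPM in Ctrl and to between 1282 and 1389.7 CPM in Ctrl MCM2-2A. Markers of RA exposure (Hoxb1, Cyp26a1 and Rarb) summed to between 279.9 and 316 CPM in Ctrl and to between 269 and 282 CPM in Ctrl MCM2-2A, against at most 3.95 CPM in any T0 library of the 2 lines. All 6 libraries thus carried the transcripts that both labels call for.

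The targeted gene was itself lower in the mutant line. Mcm2 (ENSMUSG00000002870, chromosome 6 from 88883474 to 88898780) was at 424, 419 and 423 CPM in Ctrl and 229, 236 and 218 CPM in Ctrl MCM2-2A (a log2 fold change of -0.89, SE 0.047, adjusted p = 2.78e-10). Every Ctrl MCM2-2A library lay below every Ctrl library. Groups that do not overlap were found in 54.9% of all tested features, so the separation of 3 libraries from 3 is in itself common here. Among the 3238 features called DE they were found in 3222, so such separation adds little to a DE call, here and below. Pole4 (ENSMUSG00000030042, chromosome 6 from 82618992 to 82705365), tagged in both lines, was at 41.6, 43.8 and 46.5 CPM in Ctrl and 29.6, 28.8 and 27.7 CPM in Ctrl MCM2-2A (a log2 fold change of -0.61, SE 0.064, adjusted p = 6.5e-07). Counts per gene do not show the MCM2-2A substitutions, so the genotype itself was not checked.

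Between the lines, 3238 of 18708 tested features (17.3%) were DE, with 1817 higher (9.71%) and 1421 lower (7.60%) in Ctrl MCM2-2A. Of these, 3195 were genes and 43 were repeat subfamilies. Genes on chromosomes 11, 14 and 15 made up 1078 of the DE genes, while 2728 of 17831 tested genes lie there. On chromosome 11, 494 genes were lower and 53 higher, and the median log2 fold change of its 1432 tested genes was -0.49. On chromosome 15, 279 were higher and 14 lower, with a median of 0.52 over 705 genes. On chromosome 14, 208 were higher and 30 lower, and 171 of the higher ones were among 195 tested coding genes that start between 47000000 and 68000000, where none was DE and lower. The median of that stretch was 0.99, against -0.03 and -0.05 for the coding genes before and after it. Medians at T0 were -0.48 for chromosome 11, 0.56 for chromosome 15 and 0.24 for chromosome 14, close to those at T24.

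The most abundant DE genes of each of these chromosomes, chosen because they were DE, are given as examples. Pabpc1, a poly(A)-binding protein on chromosome 15, was at 1834, 1755 and 1829 CPM in Ctrl and 3647, 3677 and 3667 CPM in Ctrl MCM2-2A (a log2 fold change of 1.02, adjusted p = 3.8e-11). Actg1, a cytoplasmic actin on chromosome 11, was at 2061, 2073 and 2239 CPM in Ctrl and 1215, 1262 and 1227 CPM in Ctrl MCM2-2A (a log2 fold change of -0.79, adjusted p = 1.34e-09). Glud1, glutamate dehydrogenase on chromosome 14 from 34310727 to 34345265, outside the higher stretch, was at 455 ± 13.6 CPM in Ctrl and 695 ± 14.7 CPM in Ctrl MCM2-2A (a log2 fold change of 0.61, adjusted p = 1.35e-08). Pabpc1 and Actg1 differed in the direction of their chromosome's median, while Glud1 was higher where the median of coding genes before 47000000 was -0.03. Ccnb1ip1 and the overlapping Rpph1, in the higher stretch of chromosome 14, had nearly the same counts in every library (log2 fold changes 0.72 and 0.72) and cannot be separated here.

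**Figure D1:**
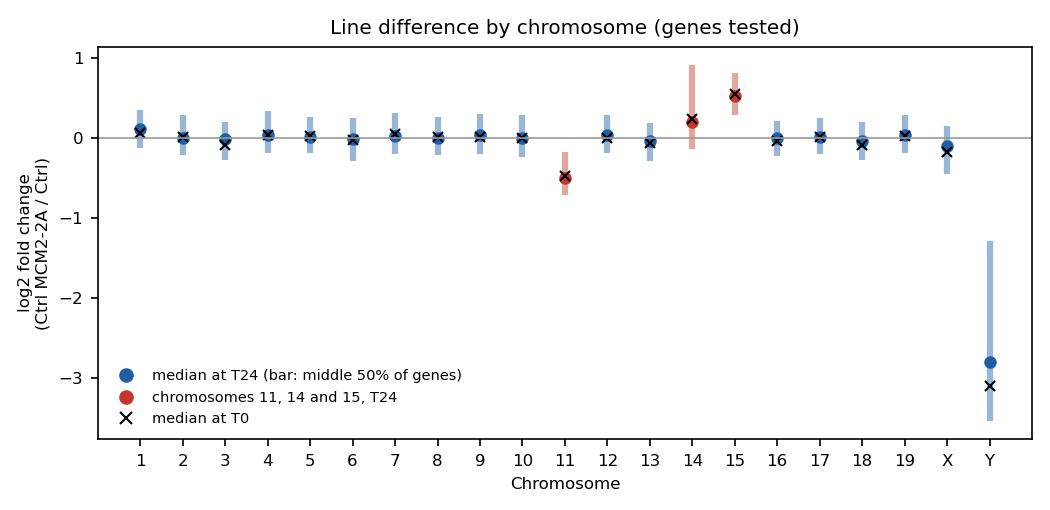
Median log2 fold change of tested genes on each chromosome between Ctrl MCM2-2A and Ctrl at T24 (circles, with bars that span the middle 50% of genes) and at T0 (crosses). Chromosome 11 lies at -0.49, chromosome 15 at 0.52, chromosome 14 at 0.21 and chromosome Y at -2.79, and the others between -0.10 and 0.11.

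Outside chromosomes 11, 14 and 15, 2114 of 15081 tested genes (14%) were DE, with 1269 higher (8.41%) and 845 lower (5.60%) in Ctrl MCM2-2A. Of them, 628 were more than 2-fold higher and 444 more than 2-fold lower. The median log2 fold change of all tested genes there was 0.0177, and medians by chromosome ran from -0.10 on X to 0.11 on chromosome 1, except on Y.

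Outside these chromosomes as well, some DE genes lay side by side. From Mcm2 to Slc6a6 on chromosome 6 (starts from 88883474 to 91684053), 20 coding genes were tested, of which 16 were DE and lower and 0 higher, with a median log2 fold change of -0.88 at T24 and -1.05 at T0. The 20 tested coding genes before Mcm2 had a median of 0.08 and the 20 after Slc6a6 a median of 0.01. Slc6a6, a taurine transporter at the far end, was at 184, 169 and 167 CPM in Ctrl and 52.5, 52.1 and 50.7 CPM in Ctrl MCM2-2A (a log2 fold change of -1.75, adjusted p = 1.01e-12). The run was found by looking at the values, so it has no test of its own. Pole4, on the same chromosome, lies before it.

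Of 11 tested genes on chromosome Y, 8 were DE and all 8 were lower. Ddx3y, an RNA helicase, was at 86.5, 78.6 and 97 CPM in Ctrl and 2.09, 2.82 and 3.02 CPM in Ctrl MCM2-2A (a log2 fold change of -5.05, adjusted p = 3.61e-14). Uty, a paralog of the histone demethylase gene Kdm6a, was at 31, 31.4 and 39.6 CPM in Ctrl and 2.27, 2.94 and 1.63 CPM in Ctrl MCM2-2A (a log2 fold change of -3.81, adjusted p = 1.25e-11). Eif2s3y, a subunit of a translation initiation factor, was at 43.7, 42.3 and 49.7 CPM in Ctrl and 6.69, 6.63 and 6.36 CPM in Ctrl MCM2-2A (a log2 fold change of -2.78, adjusted p = 1.01e-12). The mutant libraries kept a low level of these transcripts, and no Ctrl library came near it. In bulk RNA, fewer cells with a transcript and less RNA per cell cannot be told apart. Without X, Y and the run from Mcm2 to Slc6a6, 1975 genes outside chromosomes 11, 14 and 15 were DE, by a fit that was added with the results known.

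Single genes outside the 3 chromosomes are named for the size of their change, and only where the groups did not overlap. Of those lower in the mutant and not on Y, Thbs1 (ENSMUSG00000040152, chromosome 2 from 118111876 to 118127133), which encodes thrombospondin 1, was at 106, 99.6 and 113 CPM in Ctrl and 9.38, 11.9 and 9.71 CPM in Ctrl MCM2-2A (a log2 fold change of -3.34, SE 0.084, adjusted p = 8.93e-14). Tnc, the matrix protein tenascin C, was at 5.48, 5.84 and 7.92 CPM in Ctrl and 0.299, 0.318 and 0.326 CPM in Ctrl MCM2-2A (a log2 fold change of -4.32, adjusted p = 1.35e-09). Acta2, smooth muscle actin, was at 14.2, 12.2 and 12.9 CPM in Ctrl and 0.598, 1.71 and 1.31 CPM in Ctrl MCM2-2A (a log2 fold change of -3.37, adjusted p = 8.96e-10). Tnc fell below 1 CPM in every mutant library, and Thbs1 stayed above 9 CPM. Cyp1b1, a cytochrome P450, was at 6.55, 9.84 and 10.3 CPM in Ctrl and 0.777, 0.596 and 0.734 CPM in Ctrl MCM2-2A (a log2 fold change of -3.68, adjusted p = 2.58e-09). Gbp3, an interferon-inducible GTPase, was at 5.74 ± 0.267 CPM in Ctrl and 0.567 ± 0.0963 CPM in Ctrl MCM2-2A (a log2 fold change of -3.27, adjusted p = 1.75e-09), although reads may be shared with its close paralogs. Nxf3, an RNA export factor on X, was at 12 ± 1.67 CPM in Ctrl and 1.67 ± 0.428 CPM in Ctrl MCM2-2A (a log2 fold change of -2.91, adjusted p = 9.86e-10).

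The largest increase under the rule for named genes was in Thy1 (ENSMUSG00000032011, chromosome 9 from 44043384 to 44048579), a surface glycoprotein, at 1.04, 0.577 and 0.841 CPM in Ctrl and 9.5, 8.78 and 10.6 CPM in Ctrl MCM2-2A (a log2 fold change of 3.53, SE 0.19, adjusted p = 3.28e-10). Alppl2, an alkaline phosphatase, was at 1.6, 0.973 and 0.891 CPM in Ctrl and 8.54, 5.76 and 7.5 CPM in Ctrl MCM2-2A (a log2 fold change of 2.59, adjusted p = 5.25e-08). Sycp3, a component of the synaptonemal complex of meiosis, was at 5.38, 5.55 and 5.15 CPM in Ctrl and 26.7, 26.5 and 21.9 CPM in Ctrl MCM2-2A (a log2 fold change of 2.23, adjusted p = 6.3e-11). The minimum of 5 CPM for a named gene applied to the line with the higher mean. Thy1 and Alppl2, near 1 CPM in Ctrl, reached it through the mutant line alone, as did Trf and Nupr1 below. Of the lower genes above, Tnc, Acta2, Cyp1b1, Gbp3 and Nxf3 reached it through Ctrl alone. Trf, transferrin, was at 3.91, 4.18 and 3.07 CPM in Ctrl and 15.9, 15.8 and 17.4 CPM in Ctrl MCM2-2A (a log2 fold change of 2.11, adjusted p = 6.37e-10). Nupr1, a stress-induced chromatin protein, was at 4.48, 5.73 and 4.26 CPM in Ctrl and 21.5, 22.1 and 19.3 CPM in Ctrl MCM2-2A (a log2 fold change of 2.12, adjusted p = 3.84e-10). The other genes with the largest increases were Atp2b2, a calcium pump (log2 fold change 2.2), Kirrel2, an adhesion protein (2.14), Slc22a7, an organic anion transporter (2.13), Unc5a, a netrin receptor (2.11), and Lrrc10b (2.04).

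**Figure D2:**
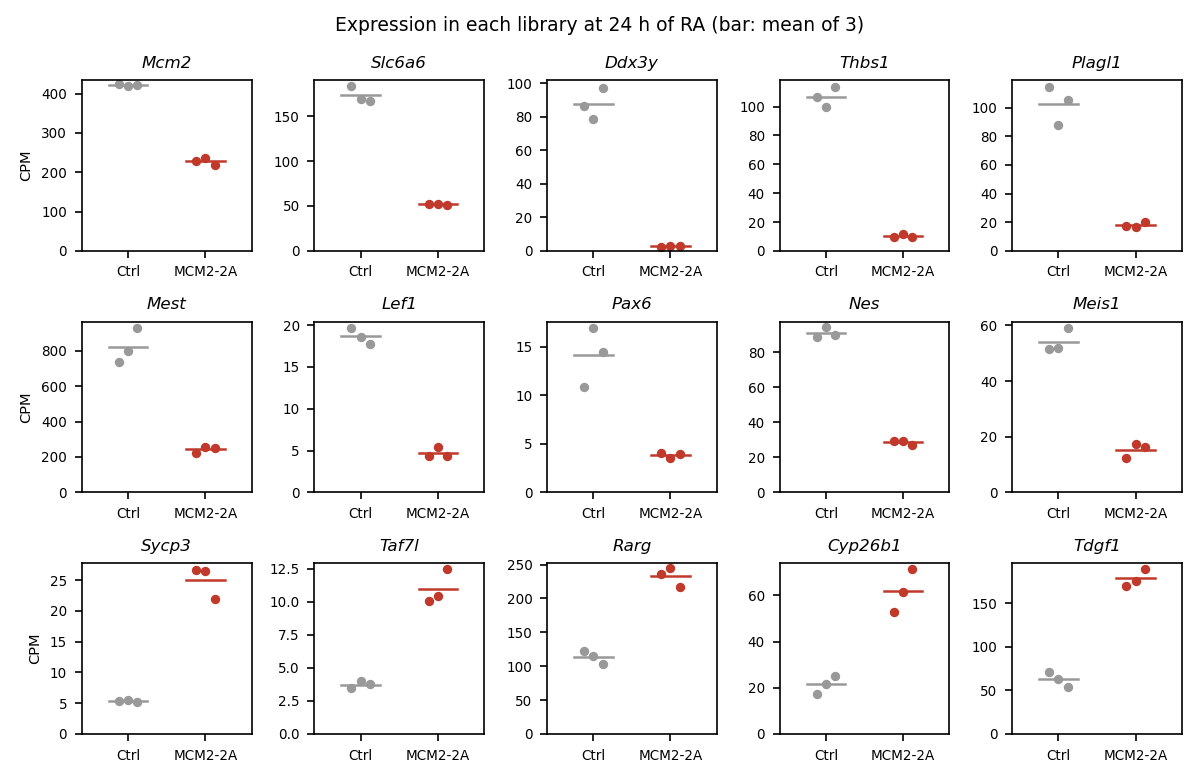
CPM (vertical axes from 0) of 15 genes in each library of Ctrl (grey) and Ctrl MCM2-2A (red) at T24, with a bar at the mean of 3. The first 10 genes, from Mcm2 to Meis1, were lower in every mutant library and the last 5, from Sycp3 to Tdgf1, higher.

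Of 5 tested genes of the early RA response list, 1 was higher (Lefty2) and 1 lower (Sox1), both described further on. That is 20% each, against 9.71% and 7.60% of all tested features, and the median was -0.032. Cyp26a1, which degrades RA and is a direct target of its receptors, was at 170.4, 192 and 185 CPM in Ctrl and 176, 181 and 179.9 CPM in Ctrl MCM2-2A (a log2 fold change of -0.032, SE 0.051, adjusted p = 0.638). Stra8, a meiotic gene named for its response to RA, was at 407, 434 and 430.0 CPM in Ctrl and 433, 411 and 437 CPM in Ctrl MCM2-2A (a log2 fold change of 0.0057, SE 0.046, adjusted p = 0.934). Rarb, the receptor that RA itself induces, was at 17.2, 21.3 and 21.9 CPM in Ctrl and 14.5, 18.1 and 19.6 CPM in Ctrl MCM2-2A (a log2 fold change of -0.21, SE 0.11, adjusted p = 0.121). Cyp26a1, Stra8 and Rarb were not DE, and the lines overlapped in each. Stra8 and Rarb are not on that list, and Stra8 was named after its values were seen.

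The sequences upstream of Cyp26a1 and Rarb are shown because they hold a known form of RA response element, direct repeats of a receptor motif with a spacer of 5 bases. They come from the RefSeq promoter table (GRCm38.p6). Capitals mark the match to GNTCA, any 6 bases and GNTCA (the spacer and the free first base of the second copy), searched on both strands in the 250 bases before each start. In Cyp26a1 the match reads on the strand opposite to the one printed, and in Rarb on the printed strand.
Cyp26a1 (chr19:37697751-37697807, plus strand, bases 57 to 1 before the start): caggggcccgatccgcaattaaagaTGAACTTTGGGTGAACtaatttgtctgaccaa
Rarb (chr14:16575488-16575553, minus strand, bases 77 to 12 before the start): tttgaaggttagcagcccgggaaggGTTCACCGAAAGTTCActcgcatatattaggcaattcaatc
Such a match stood in 255 of all 32851 promoter entries (0.776%) and in 2 of the 18 retinoid genes with an entry, Cyp26a1 and Rarb. Both are genes that did not pass the test between the lines, and a match is a description and not a site. A retinoid gene was counted if any of its entries held a match, which is not directly comparable with the share per entry.

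Genes that carry, make or break down retinoids differed in both directions. Of 20 tested retinoid receptor and metabolism genes, 3 were higher (15%) and 3 lower (15%), against 9.71% and 7.60% of all tested features, with a median log2 fold change of -0.013, against -0.00203 over all tested features. Crabp2, which brings RA to its nuclear receptors, was at 77.6, 88.8 and 87.9 CPM in Ctrl and 37.2, 45.4 and 40.4 CPM in Ctrl MCM2-2A (a log2 fold change of -1.04, SE 0.073, adjusted p = 6.66e-09). Dhrs3, which reduces retinal back to retinol, was at 60.6, 62.9 and 58.4 CPM in Ctrl and 37.8, 40.2 and 40.5 CPM in Ctrl MCM2-2A (a log2 fold change of -0.62, adjusted p = 1.6e-07). Ncoa7, a nuclear receptor coactivator, was at 33.4 ± 2.55 CPM in Ctrl and 14.9 ± 1.24 CPM in Ctrl MCM2-2A (a log2 fold change of -1.17, adjusted p = 6.18e-09). These 3 were lower in every mutant library. Cyp26b1, a second RA-degrading enzyme, was at 17.5, 21.7 and 25.1 CPM in Ctrl and 52.8, 61.4 and 71.4 CPM in Ctrl MCM2-2A (a log2 fold change of 1.53, adjusted p = 8.6e-09). Rarg, an RA receptor on chromosome 15, was at 123, 115 and 103 CPM in Ctrl and 236, 245 and 217 CPM in Ctrl MCM2-2A (a log2 fold change of 1.03, adjusted p = 1.47e-09). The lines did not overlap in these higher genes either. Crabp1, the other cellular RA-binding protein, was also higher (0.69, adjusted p = 2.57e-05), while the receptors Rara (-0.27, adjusted p = 0.000932) and Rxra (0.26, adjusted p = 0.002) were not DE.

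Before RA, several of these genes stood the other way round. Crabp2 at T0 was at 7.89, 7.66 and 8.61 CPM in Ctrl and 22.3, 20.1 and 17.4 CPM in Ctrl MCM2-2A. Dhrs3 at T0 was at 0.958, 1.63 and 2.15 CPM in Ctrl and 4.38, 4.13 and 4.18 CPM in Ctrl MCM2-2A. In both the mutant was above Ctrl before RA and below it after 24 h. The line difference thereby changed by -2.32 (SE 0.14, adjusted p = 1.67e-08) for Crabp2 and by -2.01 (SE 0.19, adjusted p = 3.53e-06) for Dhrs3. Stra8 at T0 was at 7.61, 11.4 and 15.5 CPM in Ctrl and 29.1, 25 and 31.5 CPM in Ctrl MCM2-2A, a difference of 1.29 (adjusted p = 0.000134) that was near 0 after RA, a change of -1.3 (adjusted p = 0.000151). Cyp26a1 was lower in the mutant at T0, at 1.03 ± 0.217 CPM against 3.17 ± 0.21 CPM in Ctrl, and changed by 1.51 (adjusted p = 2.07e-05).

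The Nodal inhibitor genes Lefty1 and Lefty2 lie next to each other on chromosome 1, and in both the line difference was lower at T24 than at T0. Lefty1 at T0 was at 25.4, 38.1 and 26.9 CPM in Ctrl and 106, 89.1 and 92.3 CPM in Ctrl MCM2-2A, a difference of 1.65 (adjusted p = 1.04e-06). At T24 it was at 312, 347 and 317 CPM in Ctrl and 304, 351 and 314 CPM in Ctrl MCM2-2A (a log2 fold change of -0.013, adjusted p = 0.882), and the lines overlapped. Lefty2 was at 90.2, 89.2 and 89.6 CPM in Ctrl and 169, 189 and 176 CPM in Ctrl MCM2-2A (a log2 fold change of 0.99, adjusted p = 2.61e-10) at T24, still higher in every mutant library, after a difference of 2.17 at T0. The change was -1.67 (adjusted p = 2.08e-06) for Lefty1 and -1.19 (adjusted p = 7.77e-06) for Lefty2.

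**Figure D3:**
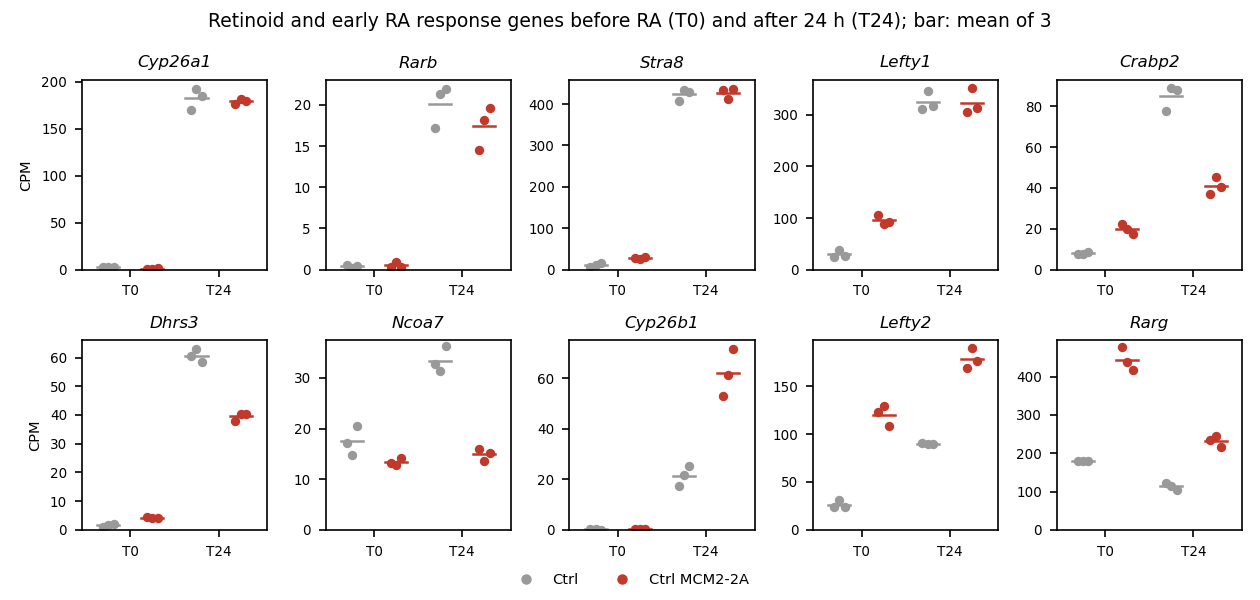
CPM (vertical axes from 0) of 10 retinoid and early RA response genes in each library of Ctrl (grey) and Ctrl MCM2-2A (red) at T0 and T24, with a bar at the mean of 3. Cyp26a1, Rarb, Stra8 and Lefty1 overlap between the lines at T24, Crabp2 and Dhrs3 are lower in the mutant at T24 and higher at T0, Ncoa7 is lower at T24, and Cyp26b1, Lefty2 and Rarg are higher in the mutant at T24.

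Of 18 tested naive pluripotency genes, 1 was higher and 3 were lower, 22.2% of the list against 17.3% of all tested features, with a median of 0.14. Nanog was at 187, 151 and 143 CPM in Ctrl and 199.9, 179 and 171 CPM in Ctrl MCM2-2A (a log2 fold change of 0.19, adjusted p = 0.0665). The naive factors Klf4 (0.038, adjusted p = 0.702), Esrrb (0.15, adjusted p = 0.0715) and Tfcp2l1 (-0.031, adjusted p = 0.726) were not DE. Pou5f1, which encodes OCT4, was at 404, 385 and 365 CPM in Ctrl and 498, 506 and 449.9 CPM in Ctrl MCM2-2A (a log2 fold change of 0.33, SE 0.056, adjusted p = 0.000122). It was higher in every mutant library, by less than the fold threshold, as was Fgf4 (0.44, adjusted p = 0.00277), which drives exit from pluripotency. Tbx3, a naive T-box factor, was at 305, 294 and 297 CPM in Ctrl and 469.5, 489.8 and 481 CPM in Ctrl MCM2-2A (a log2 fold change of 0.68, adjusted p = 2.98e-09) and was the higher member. The lower members were Dppa3, which protects maternal methylation marks (-1.85, adjusted p = 5.96e-07), Pramel6 (-1.19, adjusted p = 4.02e-05) and, on chromosome 11, Pecam1 (-0.85, adjusted p = 7.6e-09).

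Among 11 general pluripotency genes, 3 were higher (27.3%, against 9.71% of all tested features) and 0 lower. Tdgf1, the Nodal co-receptor CRIPTO, was at 70.9, 62.7 and 54 CPM in Ctrl and 169.8, 176 and 189 CPM in Ctrl MCM2-2A (a log2 fold change of 1.5, adjusted p = 1.62e-10). Utf1, a chromatin factor of undifferentiated cells, was at 102, 115 and 108 CPM in Ctrl and 176, 197 and 168 CPM in Ctrl MCM2-2A (a log2 fold change of 0.74, adjusted p = 5.25e-08). Dppa5a, an RNA-binding protein, was higher as well (0.74, adjusted p = 4.8e-08).

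Formative genes, which mark the step from naive to primed pluripotency, were split. Of 10 tested, 2 were higher (20%) and 3 lower (30%), against 9.71% and 7.60% of all tested features, with a median of -0.46. Lef1 (ENSMUSG00000027985, chromosome 3 from 131110471 to 131224356), a nuclear effector of Wnt signalling, was at 19.7, 18.6 and 17.8 CPM in Ctrl and 4.36, 5.48 and 4.32 CPM in Ctrl MCM2-2A (a log2 fold change of -1.96, SE 0.11, adjusted p = 6.67e-10). Pou3f1, a POU factor of primed and neural cells, was at 32.7, 37.7 and 39.4 CPM in Ctrl and 17, 19.9 and 16.4 CPM in Ctrl MCM2-2A (a log2 fold change of -1.02, adjusted p = 6.42e-08). Sox4, a SOX factor, was at 134, 139.8 and 147 CPM in Ctrl and 82.3, 83.7 and 79.3 CPM in Ctrl MCM2-2A (a log2 fold change of -0.78, adjusted p = 3.2e-09). All 3 were lower in every mutant library. For Lef1 the difference of -0.44 at T0 changed by -1.53 (adjusted p = 2.07e-05), and for Pou3f1 that of -0.15 changed by -0.88 (adjusted p = 0.00398). Dnmt3a, a de novo DNA methyltransferase, was at 249, 261 and 258 CPM in Ctrl and 457, 471 and 433 CPM in Ctrl MCM2-2A (a log2 fold change of 0.82, adjusted p = 8.86e-10). Otx2, a homeobox factor of primed cells that lies in the higher stretch of chromosome 14, was at 2.64, 2.81 and 3.32 CPM in Ctrl and 6.81, 5.72 and 3.997 CPM in Ctrl MCM2-2A (a log2 fold change of 0.95, adjusted p = 0.000406). These were the higher members. Zic2 (-0.55, adjusted p = 1.24e-05), Zic5 (-0.39, adjusted p = 0.000705), Krt18 (-0.53, adjusted p = 2.44e-06) and Fgf5 (-0.18, adjusted p = 0.667) were not DE, and Foxd2 was too low to be tested.

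Pax6, Nes, Sox11 and Sox1 were among the neural genes that were lower. Of 19 tested neural commitment genes, 5 were lower (26.3%) and 2 higher (10.5%), against 7.60% and 9.71% of all tested features, with a median of -0.30. Pax6, a regulator of neural progenitors, was at 10.9, 16.9 and 14.4 CPM in Ctrl and 4.06, 3.53 and 3.92 CPM in Ctrl MCM2-2A (a log2 fold change of -1.89, SE 0.16, adjusted p = 5.79e-08). Nes, which encodes the progenitor filament nestin, was at 88.3, 94.1 and 89.6 CPM in Ctrl and 29.6, 29.3 and 26.8 CPM in Ctrl MCM2-2A (a log2 fold change of -1.66, adjusted p = 4.94e-12). Sox11, a SOX factor of neural progenitors, was at 36.7, 35.7 and 38.5 CPM in Ctrl and 14.8, 13.7 and 16.7 CPM in Ctrl MCM2-2A (a log2 fold change of -1.32, adjusted p = 8.09e-10). The gap between the lines was wider than the range within either. Sox1, the earliest neuroectoderm SOX factor, was at 17, 17.7 and 17.8 CPM in Ctrl and 10.5, 11 and 10.7 CPM in Ctrl MCM2-2A (a log2 fold change of -0.70, adjusted p = 3.48e-06). Dcx, the neuronal microtubule protein doublecortin, was barely detected, at 0.468, 0.505 and 1.24 CPM in Ctrl and 0, 0.0794 and 0.0816 CPM in Ctrl MCM2-2A. Sox3 was not DE (-0.17, adjusted p = 0.108). The higher members were Map2, a neuronal microtubule protein, at 4.71, 5.34 and 5.64 CPM in Ctrl and 10.3, 9.17 and 10.9 CPM in Ctrl MCM2-2A (a log2 fold change of 0.95, adjusted p = 6.31e-06), and the very low Pax7 (1.46, adjusted p = 0.00888), whose call was lost with DESeq2 and on leaving out any 1 of 5 of the 6 libraries. Pax6, Nes and Sox11 were already lower at T0, with log2 fold changes of -1.27, -1.33 and -1.69.

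Hox genes, which RA switches on along the clusters from their 3′ ends, are given by cluster beside 17.3% DE among all tested features. Of 9 tested Hoxa features 1 was higher (11.1%), and of 10 tested Hoxb features 0 were higher and 0 lower. Hoxa9, a posterior gene, was at 2.27, 1.01 and 1.98 CPM in Ctrl and 4.9, 4.49 and 3.18 CPM in Ctrl MCM2-2A (a log2 fold change of 1.28, adjusted p = 0.000389). Hoxb1, an anterior gene, was at 92.3, 103 and 93 CPM in Ctrl and 78.3, 82.4 and 83 CPM in Ctrl MCM2-2A (a log2 fold change of -0.25, adjusted p = 0.00139). Every mutant library was below Ctrl in Hoxb1, by less than the fold threshold, and the Hoxb cluster lies on chromosome 11, whose median was -0.49. Hoxb4 was also lower by less than the threshold (-0.44, adjusted p = 7.58e-05) and Hoxb8 higher by less than it (0.51, adjusted p = 6.8e-06), and the median of the Hoxb features was -0.049. Of 12 tested Hoxc and Hoxd genes 3 were higher (25%), Hoxc4 (0.98, adjusted p = 7.63e-05), Hoxc10 (1.78, adjusted p = 0.000586) and Hoxc13 (1.32, adjusted p = 7.91e-05), all on chromosome 15.

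TALE homeobox proteins are the partners with which HOX proteins bind DNA. Of 10 tested TALE genes, 3 were lower (30%, against 7.60% of all tested features) and 0 higher, with a median of 0.022. Meis1, on chromosome 11, was at 51.4, 51.8 and 59.1 CPM in Ctrl and 12.5, 17.3 and 16.3 CPM in Ctrl MCM2-2A (a log2 fold change of -1.81, SE 0.095, adjusted p = 2.61e-10). Meis2 was at 70.9, 72.8 and 76.9 CPM in Ctrl and 44.9, 50 and 49.3 CPM in Ctrl MCM2-2A (a log2 fold change of -0.61, adjusted p = 2.18e-07). In each the lowest Ctrl library was above the highest mutant library, as it was in Pknox2 (-0.96, adjusted p = 5.87e-06). At T0 Meis1 was not DE (log2 fold change -0.76), and its line difference changed by -1.08 (adjusted p = 0.00597). For Meis2 the difference shrank from -1.74 at T0, a change of 1.09 (adjusted p = 0.000156).

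Of 21 tested Wnt pathway genes and targets, 7 were lower (33.3%, against 7.60% of all tested features) and 0 higher, with a median of -0.16. On chromosome 11, which holds 3 of them, 494 of 1432 genes were lower. Sp5, a direct Wnt target, was at 4.51, 6.56 and 6.14 CPM in Ctrl and 0.956, 0.715 and 0.816 CPM in Ctrl MCM2-2A (a log2 fold change of -2.8, SE 0.22, adjusted p = 2.99e-08). Dkk1, a secreted Wnt inhibitor, was at 5.61, 5.55 and 6.04 CPM in Ctrl and 2.09, 2.7 and 3.43 CPM in Ctrl MCM2-2A (a log2 fold change of -1.09, adjusted p = 4.37e-05). Together with Lef1 these were the 3 lower members outside chromosomes 11, 14 and 15. Axin2, a feedback inhibitor on chromosome 11, was at 48.3, 45.1 and 48.7 CPM in Ctrl and 23.8, 30.2 and 29.2 CPM in Ctrl MCM2-2A (a log2 fold change of -0.77, adjusted p = 4.26e-07). Notum, which inactivates Wnt ligands and lies on chromosome 11, was at 8.05, 7.21 and 7.47 CPM in Ctrl and 3.59, 2.18 and 1.88 CPM in Ctrl MCM2-2A (a log2 fold change of -1.57, adjusted p = 1.76e-06). Wnt5a, a ligand, was at 6.28, 5.84 and 5.54 CPM in Ctrl and 0.598, 1.11 and 1.31 CPM in Ctrl MCM2-2A (a log2 fold change of -2.56, adjusted p = 3.57e-08). Wnt5a lies on chromosome 14 but outside the higher stretch (chromosome 14 from 28504750 to 28527448). Znrf3, a receptor ligase on chromosome 11, was lower too (-0.62, adjusted p = 1.91e-07), and Ctnnb1, the transducer itself, was not DE (-0.059, adjusted p = 0.304).

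Of 17 tested Nodal and TGF-beta genes, 5 were higher (29.4%) and 2 lower (11.8%), against 9.71% and 7.60% of all tested features, with a median of 0.090. Nodal, the ligand of this pathway in the epiblast, was at 59.1, 48.8 and 51.3 CPM in Ctrl and 101, 92.4 and 92.6 CPM in Ctrl MCM2-2A (a log2 fold change of 0.84, adjusted p = 3.53e-08). Inhbb, a subunit of activin B, was at 5.04, 7.17 and 4.9 CPM in Ctrl and 16, 18.1 and 16.1 CPM in Ctrl MCM2-2A (a log2 fold change of 1.55, adjusted p = 5.4e-08). Tgfb2, another ligand, was at 7.48, 5.66 and 5.79 CPM in Ctrl and 1.31, 1.15 and 0.734 CPM in Ctrl MCM2-2A (a log2 fold change of -2.52, adjusted p = 4.12e-08). Nodal and Inhbb were thus higher in every mutant library, like the co-receptor Tdgf1 and the inhibitor Lefty2 above, and Tgfb2 lower. Bmp7 was also higher (0.77, adjusted p = 0.000229), and Id2, a target of BMP signals, lower (-0.59, adjusted p = 4.89e-07).

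Of 19 tested FGF genes and ERK feedback genes, 4 were lower (21.1%, against 7.60% of all tested features) and 0 higher, and 3 were lower with DESeq2 and 2 with the replicate block. Egr1, an immediate target of ERK, was at 10.3, 12.2 and 12.6 CPM in Ctrl and 5.98, 6.12 and 5.87 CPM in Ctrl MCM2-2A (a log2 fold change of -0.96, adjusted p = 3.37e-06). Dusp4, an ERK phosphatase, was at 42, 45.2 and 49.1 CPM in Ctrl and 25.2, 31.1 and 27 CPM in Ctrl MCM2-2A (a log2 fold change of -0.70, adjusted p = 1.92e-06). Both were lower in every mutant library. The remaining lower members were the receptor Fgfr3 (-0.58, adjusted p = 0.00133) and the ligand Fgf8 (-1.07, adjusted p = 0.00678), the latter under 2 CPM. Both calls were lost with the block, that of Fgfr3 also on leaving out any 1 of 3 libraries, and that of Fgf8 also with DESeq2 and on leaving out any 1 of the 6. Of 13 LIF and JAK-STAT genes 2 were lower (15.4%, against 7.60% of all tested features). These were the signalling receptor gene Il6st (-0.63, adjusted p = 4.46e-08) and Mycn. Mycn, a MYC factor of undifferentiated cells, was at 25.3, 28.9 and 27.4 CPM in Ctrl and 11.7, 17.6 and 12.4 CPM in Ctrl MCM2-2A (a log2 fold change of -0.93, adjusted p = 4.9e-06). Its level at T0 was 202 ± 13.2 CPM in Ctrl and 184 ± 26.7 CPM in the mutant, so it was lower after RA in both lines and lower still in the mutant (change of the difference -0.78, adjusted p = 0.00626).

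Mesoderm and primitive streak genes, mostly at low levels, had 12 DE members among 14 tested, 5 higher and 7 lower (85.7% DE, against 17.3% of all tested features). DESeq2 called 8, of which 2 were higher and 6 lower. T, or Brachyury, was at 4.18, 2.56 and 2.92 CPM in Ctrl and 0.538, 0.635 and 0.734 CPM in Ctrl MCM2-2A (a log2 fold change of -2.36, adjusted p = 2.19e-06). Kdr, the VEGF receptor of mesoderm progenitors, was at 1.77, 1.87 and 1.68 CPM in Ctrl and 0.418, 0.318 and 0.653 CPM in Ctrl MCM2-2A (a log2 fold change of -2.04, adjusted p = 3.39e-05). Wnt3, on chromosome 11, was at 9.79, 8.8 and 8.02 CPM in Ctrl and 2.81, 4.29 and 2.69 CPM in Ctrl MCM2-2A (a log2 fold change of -1.39, adjusted p = 2.31e-06). All 3 were lower in every mutant library. T and Wnt3 had been lower still at T0, with log2 fold changes of -4.85 and -2.88. Cdx1, a caudal factor that RA induces, was at 76, 63 and 61.9 CPM in Ctrl and 134, 133 and 146 CPM in Ctrl MCM2-2A (a log2 fold change of 1.03, adjusted p = 4.06e-09). It went against the lower Cdx2 (-0.60, adjusted p = 0.000229) and Cdx4 (-1.44, adjusted p = 0.000976). The other higher members were Tbx5, Mesp2, Foxf1 and Mixl1, whose mutant means were between 0.648 and 3.49 CPM. The calls of Tbx5, Foxf1 and Mixl1 were lost with DESeq2, and also on leaving out any 1 of 3, 5 and 3 of the 6 libraries, respectively.

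Of 20 tested endoderm genes 3 were higher (15%) and 3 lower (15%), against 9.71% and 7.60% of all tested features. Gata4, an endoderm GATA factor, was at 6.51, 3.97 and 6.14 CPM in Ctrl and 16.3, 14.6 and 16.4 CPM in Ctrl MCM2-2A (a log2 fold change of 1.5, adjusted p = 2.21e-07). Sox7, an endoderm SOX factor, was at 4.36 ± 0.785 CPM in Ctrl and 6.78 ± 0.504 CPM in Ctrl MCM2-2A (a log2 fold change of 0.66, adjusted p = 0.00149). Both lie in the higher stretch of chromosome 14, Gata4 on chromosome 14 from 63198922 to 63271692 and Sox7 on chromosome 14 from 63943673 to 63950732. Gata6, on another chromosome, was at 29.1, 27.8 and 35.7 CPM in Ctrl and 26.2, 25.1 and 26.9 CPM in Ctrl MCM2-2A (a log2 fold change of -0.25, adjusted p = 0.0259) and was not DE, after a difference of 1.31 (adjusted p = 0.00113) at T0. Fst, which binds activin, was lower (-2.78, adjusted p = 2.83e-07), as were Cubn, an endocytic receptor (-0.79, adjusted p = 0.00127), and Sparc on chromosome 11 (-0.71, adjusted p = 1.18e-08). Amn, the partner of the Cubn protein, was higher (0.99, adjusted p = 2.1e-05). Of 8 trophoblast genes, 2 were higher (25%) and 1 lower (12.5%). Gata3 was lower, at 22, 21.4 and 21.7 CPM in Ctrl and 2.75, 4.57 and 3.75 CPM in Ctrl MCM2-2A (a log2 fold change of -2.52, adjusted p = 1.85e-10). Krt7, on chromosome 15, was higher, at 8.12, 6.74 and 7.97 CPM in Ctrl and 28.5, 34 and 33 CPM in Ctrl MCM2-2A (a log2 fold change of 2.06, adjusted p = 7.04e-11). Esx1, a homeobox gene on X, was also higher (0.96, adjusted p = 3.35e-07).

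Germline genes that DNA methylation keeps silent in somatic cells differed in both directions, with more of them higher. Of 26 tested, 10 were higher (38.5%) and 3 lower (11.5%), against 9.71% and 7.60% of all tested features, with a median of 0.43, and outside chromosomes 11, 14 and 15 the counts were 9 and 2. Sycp3 led the list, as given above. Tdrd1, a Tudor protein of the piRNA pathway, was at 2.07, 2.34 and 3.22 CPM in Ctrl and 7.41, 7.78 and 7.34 CPM in Ctrl MCM2-2A (a log2 fold change of 1.59, adjusted p = 4.38e-07). Taf7l, a germ cell TFIID subunit, was at 3.47, 3.97 and 3.76 CPM in Ctrl and 10, 10.4 and 12.5 CPM in Ctrl MCM2-2A (a log2 fold change of 1.54, adjusted p = 4.13e-08). Sycp1, a partner of Sycp3 in the synaptonemal complex, was at 3.37, 2.6 and 3.32 CPM in Ctrl and 6.27, 6.27 and 8.65 CPM in Ctrl MCM2-2A (a log2 fold change of 1.16, adjusted p = 1.87e-05). No mutant library overlapped Ctrl in these genes. The piRNA pathway genes Mael (0.83, adjusted p = 1.23e-06) and, on chromosome 15, Mov10l1 (1.16, adjusted p = 2.75e-09), the germ cell helicase gene Ddx4 (0.83, adjusted p = 7.73e-08) and the carrier gene Slc25a31 (0.65, adjusted p = 0.00175) were higher too. The lower members were Asz1 (-2.32, adjusted p = 5.14e-05), Sohlh2 (-0.59, adjusted p = 8.02e-07) and, on chromosome 11, Tex19.1 (-0.66, adjusted p = 8.81e-08). Dazl, a germ cell RNA-binding protein, was not DE (-0.24, adjusted p = 0.117).

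Several of their promoters hold the E-box CACGTG, the letters read by the MGA-MAX pair, a repressor of germline genes. They are shown with up to 25 bases on either side, from the same RefSeq table, for 7 higher members outside chromosomes 11, 14 and 15 and for Stag3, a cohesin subunit gene that holds the E-box and was not DE (-0.12, adjusted p = 0.21). Capitals mark the E-box.
Sycp3 (chr10:88459519-88459574, plus strand, bases 68 to 13 before the start): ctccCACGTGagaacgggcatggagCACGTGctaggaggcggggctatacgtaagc
Tdrd1 (chr19:56826173-56826208, plus strand, bases 36 to 1 before the start): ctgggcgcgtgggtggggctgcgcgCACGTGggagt
Taf7l (chrX:134476509-134476564, minus strand, bases 74 to 19 before the start): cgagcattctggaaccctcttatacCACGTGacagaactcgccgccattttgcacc
Sycp1 (chr3:102936164-102936219, minus strand, bases 119 to 64 before the start): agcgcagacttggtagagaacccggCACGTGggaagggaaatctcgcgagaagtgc
Ddx4 (chr13:112652311-112652364, minus strand, bases 54 to 1 before the start): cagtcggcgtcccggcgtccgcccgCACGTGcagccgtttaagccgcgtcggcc
Mael (chr1:166238937-166238992, minus strand, bases 248 to 193 before the start): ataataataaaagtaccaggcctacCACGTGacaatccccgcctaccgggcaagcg
Slc25a31 (chr3:40708753-40708808, plus strand, bases 118 to 63 before the start): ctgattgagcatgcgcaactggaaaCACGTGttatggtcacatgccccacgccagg
Stag3 (chr5:138280314-138280369, plus strand, bases 195 to 140 before the start): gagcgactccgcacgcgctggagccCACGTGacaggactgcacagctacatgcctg
The stretch from Sycp3 holds 2 E-boxes. In the 250 bases before the start, CACGTG, which reads the same on both strands, stood in 1978 of 32851 promoter entries (6.02%). In the germline list it stood in 11 of the 23 members with an entry (47.8%). These were 8 of the 10 higher members, 0 of the 3 lower members and 3 of the 9 members with an entry that were tested and not DE. The 8 are the higher members named above, of which Mael, Mov10l1, Ddx4 and Slc25a31 were named after their values were seen. A listed gene was counted if any of its entries held the E-box, so its share is not directly comparable with the share per entry. A match describes the letters, and its part in these differences was not tested.

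The 2-cell-like state is a rare state of embryonic stem cells. Of 14 tested features of it 6 were higher (42.9%, against 9.71% of all tested features) and 0 lower, with a median of 0.84. The number of higher members was 2 with DESeq2, 5 with TMM factors from genes outside chromosomes 11, 14 and 15 and 9 with the replicate block. Duxf3, a copy of the gene for the activator of this state, was at 0.935, 1.05 and 1.14 CPM in Ctrl and 1.73, 1.71 and 2.28 CPM in Ctrl MCM2-2A (a log2 fold change of 0.85, adjusted p = 0.0077), a call that was lost with DESeq2 and on leaving out any 1 of the 6 libraries. Zscan4b, which marks the state, was at 4.64, 1.84 and 3.02 CPM in Ctrl and 8.84, 5.04 and 7.26 CPM in Ctrl MCM2-2A (a log2 fold change of 1.11, adjusted p = 0.00196), with the call lost without Ctrl MCM2-2A replicate 1. Usp17la, a deubiquitinase gene, was at 2.52 ± 0.808 CPM in Ctrl and 6.59 ± 1.002 CPM in Ctrl MCM2-2A (a log2 fold change of 1.34, adjusted p = 3.46e-05). These genes have near-identical copies, so the values of single members are uncertain. MERVL-int, the retroviral element of the same state, was not DE (0.064, adjusted p = 0.715).

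Imprinted genes, expressed from 1 parental allele, differed in both directions, with more of them lower. Of 41 tested, 12 were lower (29.3%) and 4 higher (9.76%), against 7.60% and 9.71% of all tested features, with a median of -0.22, and outside chromosomes 11, 14 and 15 the counts were 10 and 3. Plagl1 (ENSMUSG00000019817, chromosome 10 from 13060504 to 13131694), a zinc finger factor, was at 114, 87.8 and 105 CPM in Ctrl and 17.3, 17 and 20 CPM in Ctrl MCM2-2A (a log2 fold change of -2.52, SE 0.093, adjusted p = 6.8e-12). Mest, a hydrolase family gene, was at 738, 799 and 929 CPM in Ctrl and 223, 259 and 253 CPM in Ctrl MCM2-2A (a log2 fold change of -1.75, adjusted p = 2.96e-11). Peg10, derived from a retrotransposon, was at 2005, 2022 and 2184 CPM in Ctrl and 915, 939 and 1081 CPM in Ctrl MCM2-2A (a log2 fold change of -1.09, adjusted p = 3.88e-10). These 3 are expressed from the paternal allele, and no mutant library came near Ctrl. Peg3, a paternally expressed zinc finger gene, was at 357, 340.2 and 379 CPM in Ctrl and 148, 164 and 153 CPM in Ctrl MCM2-2A (a log2 fold change of -1.21, adjusted p = 4.56e-11). The paternally expressed Ndn (-0.90, adjusted p = 3.23e-07), Usp29 (-0.83, adjusted p = 8.87e-05), Sgce (-0.58, adjusted p = 0.00017) and, on chromosome 15, Peg13 (-1.5, adjusted p = 9.92e-08) were lower as well. Grb10, a growth inhibitor gene on chromosome 11, was at 68.5, 71.1 and 75.9 CPM in Ctrl and 22, 25.8 and 22.6 CPM in Ctrl MCM2-2A (a log2 fold change of -1.6, adjusted p = 3.82e-11). H19, a maternally expressed RNA, was at 737, 759.9 and 769 CPM in Ctrl and 398, 499.7 and 484 CPM in Ctrl MCM2-2A (a log2 fold change of -0.72, adjusted p = 1.53e-07). Igf2, its paternally expressed neighbour, was at 29.8, 25.1 and 24.6 CPM in Ctrl and 38.1, 46.9 and 45.8 CPM in Ctrl MCM2-2A (a log2 fold change of 0.71, adjusted p = 3.65e-06). H19 was thus lower and Igf2 higher in every mutant library. Phlda2 (0.83, adjusted p = 1.01e-06), Dio3 (1.45, adjusted p = 0.00146) and, on chromosome 15, Trappc9 (0.77, adjusted p = 1.3e-07) were the other higher members.

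The difference in Mest changed with time. Its level in Ctrl was 203 ± 17.5 CPM at T0 and 822 ± 97.7 CPM at T24, while in the mutant it was 163 ± 9.01 and 245 ± 19.4 CPM. The line difference of -0.34 (adjusted p = 0.00132) at T0 changed by -1.42 (adjusted p = 5.8e-07).

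Lists of chromatin genes are given next, beside 17.3% DE among all features and 14% among genes outside chromosomes 11, 14 and 15. Of 30 polycomb genes 2 were higher, Cbx6 and Cbx7 on chromosome 15, and 2 lower, Pcgf2 and Suz12 on chromosome 11 (13.3% DE), and none of the 20 outside was DE. Suz12, a core subunit of the H3K27 methyltransferase PRC2, was at 453, 426 and 473 CPM in Ctrl and 225, 232 and 235 CPM in Ctrl MCM2-2A (a log2 fold change of -0.97, adjusted p = 1.85e-10). Its partners Ezh2 (0.10, adjusted p = 0.0891) and Eed (0.10, adjusted p = 0.144) were not DE. Of 23 genes of H3K9 methylation and repeat silencing, Mphosph8 on chromosome 14 (1.17, adjusted p = 9.35e-11) and the heterochromatin protein gene Cbx5 on chromosome 15 (0.63, adjusted p = 5.34e-09) were higher and Cbx1 on chromosome 11 (-0.64, adjusted p = 1.84e-08) lower. Of 10 DNA methylation genes Dnmt3a was DE, as given above, and Dnmt1 (0.034, adjusted p = 0.571) and Dnmt3b (0.041, adjusted p = 0.581) were not. Of 22 histone chaperone genes 1 was DE, Supt16, a FACT subunit gene on chromosome 14, at 231, 228 and 229 CPM in Ctrl and 499.8, 488 and 479 CPM in Ctrl MCM2-2A (a log2 fold change of 1.09, adjusted p = 2.13e-11). H3f3b, which encodes histone H3.3 and lies on chromosome 11, was lower (-0.81, adjusted p = 8.45e-10), and the linker histone gene H1f0 on chromosome 15 was higher (0.80, adjusted p = 4.44e-08).

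Of 33 replisome genes 12.1% were DE, against 17.3% of all tested features. The 3 lower were Mcm2, Pole4 and the loading factor gene Cdc6 on chromosome 11 (-0.66, adjusted p = 2.31e-08). The 1 higher was Wdhd1 on chromosome 14 (1.2, adjusted p = 4.25e-11). The helicase partners of Mcm2 lay below the fold threshold on the other side of 0, with log2 fold changes of 0.30 for Mcm3, 0.37 for Mcm4, 0.21 for Mcm5, 0.29 for Mcm6 and 0.24 for Mcm7.

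Of 23 tested p53 targets 6 were higher (26.1%, against 9.71% of all tested features) and 0 lower, with a median of 0.31. Ddit4, a stress-induced inhibitor of mTORC1, was at 78.1, 54.1 and 38.3 CPM in Ctrl and 242, 129 and 122 CPM in Ctrl MCM2-2A (a log2 fold change of 1.52, adjusted p = 3.22e-05), with replicate 1 highest in both lines. Ephx1, an epoxide hydrolase, was at 4.68, 4.87 and 4.998 CPM in Ctrl and 12.5, 13.4 and 12.3 CPM in Ctrl MCM2-2A (a log2 fold change of 1.4, adjusted p = 2.11e-08). Cdkn1a (0.39, adjusted p = 0.00115) and Mdm2 (0.048, adjusted p = 0.455), the best known p53 targets, were not DE. Of 28 tested hypoxia and glycolysis genes 9 were higher (32.1%) and 0 lower, with a median of 0.34. Pfkp, a phosphofructokinase, was at 83.8, 82.7 and 65.1 CPM in Ctrl and 166, 127 and 144 CPM in Ctrl MCM2-2A (a log2 fold change of 0.90, adjusted p = 4.83e-07). Ldha, lactate dehydrogenase, was at 725, 706 and 635 CPM in Ctrl and 1188, 1048 and 1128 CPM in Ctrl MCM2-2A (a log2 fold change of 0.70, adjusted p = 4.31e-08). Vegfa, the vascular growth factor, was at 46.3, 40.9 and 36.3 CPM in Ctrl and 73.6, 62.9 and 67.8 CPM in Ctrl MCM2-2A (a log2 fold change of 0.71, adjusted p = 1.35e-06). The lines did not overlap in any of these. Of 15 mitochondrial transcripts, mt-Co3 was higher at T24 (0.72, adjusted p = 2.87e-06) and lower at T0 (-0.85, adjusted p = 0.00243), and mt-Nd6 was lower at T24 (-0.63, adjusted p = 0.000235), with its call lost with DESeq2 and on leaving out any 1 of 3 libraries.

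Of 24 tested adhesion and keratin genes, 5 were higher (20.8%) and 6 lower (25%), against 9.71% and 7.60% of all tested features. Cdh2, N-cadherin, was at 22.8, 20.7 and 22.9 CPM in Ctrl and 3.17, 5.08 and 4.24 CPM in Ctrl MCM2-2A (a log2 fold change of -2.38, adjusted p = 3.09e-10). Zeb2, a repressor of epithelial genes, was at 12.3, 13.1 and 14.4 CPM in Ctrl and 3.11, 3.73 and 2.53 CPM in Ctrl MCM2-2A (a log2 fold change of -2.03, adjusted p = 3.73e-09). Vim, the filament gene vimentin, was at 146, 137 and 152 CPM in Ctrl and 58.7, 58.8 and 61.7 CPM in Ctrl MCM2-2A (a log2 fold change of -1.29, adjusted p = 2.58e-11). These genes of mesenchymal cells were lower in every mutant library. Epcam, an epithelial adhesion gene, was at 66, 63.3 and 61.7 CPM in Ctrl and 112, 114 and 102 CPM in Ctrl MCM2-2A (a log2 fold change of 0.78, adjusted p = 1.01e-08). Cldn4, a tight junction claudin, was at 30.2, 33.1 and 27.9 CPM in Ctrl and 72.4, 75 and 67.5 CPM in Ctrl MCM2-2A (a log2 fold change of 1.23, adjusted p = 4.58e-10). These epithelial genes were higher in every mutant library, but so was Snai1, a repressor of E-cadherin (0.80, adjusted p = 2.63e-05), and Cdh1, E-cadherin itself, was below the fold threshold (0.30, adjusted p = 0.000101). The keratin genes Krt17 (1.36, adjusted p = 0.000543) and Krt19 (-1.19, adjusted p = 2.21e-09), both on chromosome 11, went in opposite directions.

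Markers of fibroblasts, fixed as a check for other cells, moved with the line. The 6 markers summed to between 65.2 and 72.5 CPM in Ctrl and to between 20.4 and 23.5 CPM in the mutant at T24, and to between 42.3 and 55.7 CPM and between 8.24 and 11.2 CPM at T0. Col1a1, a collagen gene on chromosome 11, was at 43.3, 51 and 47.1 CPM in Ctrl and 17.6, 17.3 and 19.6 CPM in Ctrl MCM2-2A (a log2 fold change of -1.39, adjusted p = 3.96e-10). Col1a2, its partner, was at 16.8, 17.8 and 20.8 CPM in Ctrl and 2.81, 2.74 and 3.43 CPM in Ctrl MCM2-2A (a log2 fold change of -2.65, adjusted p = 1.15e-10). Col3a1 was at 3.08 ± 0.658 CPM in Ctrl and 0.18 ± 0.13 CPM in Ctrl MCM2-2A (a log2 fold change of -3.91, adjusted p = 1.8e-07). The defining markers Dcn, Lum and Postn were close to 0, with Dcn at 0.802, 0.829 and 1.14 CPM in Ctrl and 0, 0 and 0 CPM in Ctrl MCM2-2A. Of 8 tested fibroblast genes 5 were lower (62.5%, against 7.60% of all tested features), and Thy1 was higher. The part of such cells in the lower matrix genes, Thbs1, Tnc and Acta2 among them, was not tested.

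**Figure D4:**
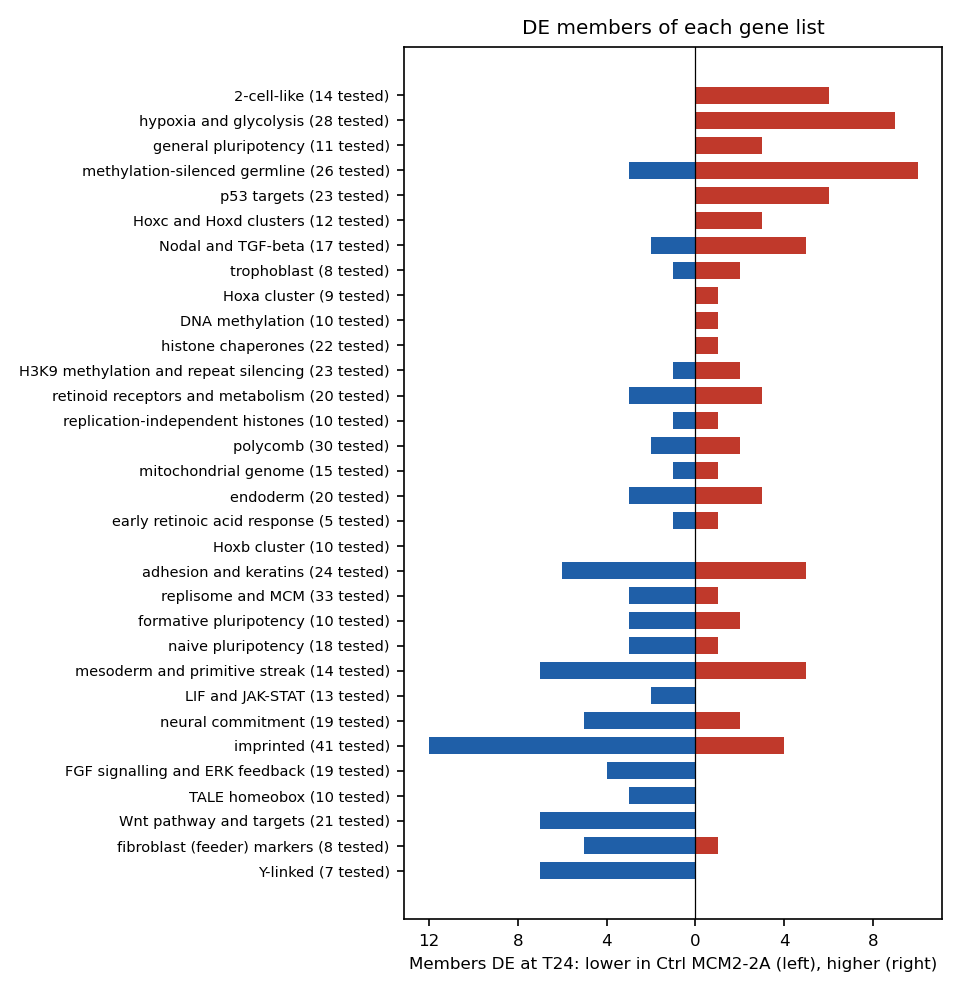
Number of DE members of each of 32 gene lists at T24, lower in Ctrl MCM2-2A to the left (blue) and higher to the right (red), with the number tested beside each name. All DE members are lower in the Wnt, TALE, FGF, LIF and Y-linked lists, and all are higher in the 2-cell-like, hypoxia and glycolysis, p53 and general pluripotency lists.

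Of 877 tested repeat subfamilies 43 (4.90%) were DE, against 17.3% of all tested features (7.60% lower and 9.71% higher). Of the 43, 38 were lower and 5 higher. The median log2 fold change of all tested subfamilies was -0.17, against -0.00203 over all tested features. MLT1J1-int, an element of the MaLR group, was at 2.1, 2.7 and 2.82 CPM in Ctrl and 0.12, 0.0794 and 0.163 CPM in Ctrl MCM2-2A (a log2 fold change of -4.44, adjusted p = 5.01e-08). IAPEy-int, an intracisternal A particle, was at 17.3, 14.8 and 19.05 CPM in Ctrl and 3.64, 2.22 and 2.2 CPM in Ctrl MCM2-2A (a log2 fold change of -2.67, adjusted p = 1.12e-09). ETnERV3-int, an early transposon, was at 54.9, 45.4 and 57.7 CPM in Ctrl and 11.6, 12.6 and 18.3 CPM in Ctrl MCM2-2A (a log2 fold change of -1.93, adjusted p = 1.64e-09). All 3 were lower in every mutant library. MMERGLN-int, an endogenous retrovirus, was at 273, 290.1 and 267 CPM in Ctrl and 405, 449 and 466 CPM in Ctrl MCM2-2A (a log2 fold change of 0.67, adjusted p = 4e-08). L1Md_A, a young LINE-1 group, was at 1607, 1502 and 1477 CPM in Ctrl and 2184, 2411 and 2702 CPM in Ctrl MCM2-2A (a log2 fold change of 0.67, adjusted p = 2.13e-07). These were higher in every mutant library, as was the LTR of the former, MMERGLN_LTR (0.65, adjusted p = 4.49e-06). A subfamily value sums over all copies and has no position.

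Most differences outside chromosomes 11, 14 and 15 were there before RA. Of the 2114 genes DE at T24, 1227 were DE in the same direction at T0, 11 in the opposite direction and 876 not at T0, of which 176 were too low there to be tested. At T0 3395 of 17972 features (18.9%) were DE. Among the 876 genes, 555 were higher and 321 lower at T24. A call at one time and not at the other does not show that the difference changed, so the change was tested as an interaction over the 12 libraries of both times.

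**Figure D5:**
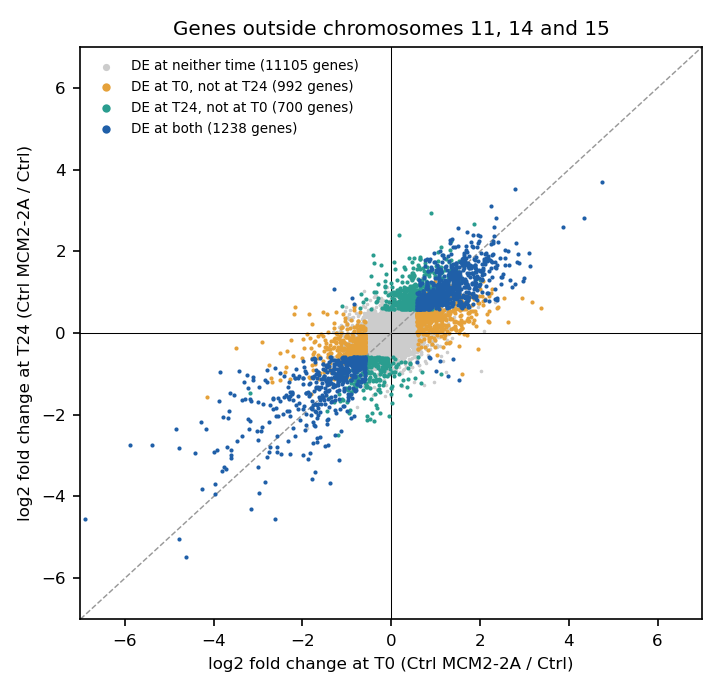
Log2 fold change of Ctrl MCM2-2A over Ctrl at T0 (horizontal) and T24 (vertical) for the 14035 genes outside chromosomes 11, 14 and 15 that were tested at both times, each point a gene, with no library shared between the axes. Of the points DE at both times (1238), 1227 had the same direction at both times and 11 opposite directions, with 700 DE at T24 alone and 992 at T0 alone. The dashed line marks equal differences, and not all points DE at both times lie near it.

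In the interaction, 426 of 19550 features (2.18%) passed, 207 with a line difference that was higher at T24 and 219 with a lower one. Of them, 345 were genes outside the 3 chromosomes. Meox1, a mesoderm homeobox gene on chromosome 11, was at 5.34, 4.51 and 5.74 CPM in Ctrl and 1.55, 1.07 and 0.408 CPM in Ctrl MCM2-2A at T24. Its log2 fold change was 0.71 at T0 and -2.28 at T24, a change of -3.01 (SE 0.42, adjusted p = 0.000221). Cyp1b1, given above, went from -1.39 at T0 by a change of -2.28 (adjusted p = 0.00151). Other differences of T0 were smaller at T24. Slc39a8, a zinc and manganese transporter, was at 15, 13 and 14.8 CPM in Ctrl and 0.738, 0.612 and 1.29 CPM in Ctrl MCM2-2A at T0. At T24 it was at 3.54, 3.5 and 3.86 CPM in Ctrl and 1.49, 1.83 and 2.45 CPM in Ctrl MCM2-2A, a change of 2.91 (SE 0.29, adjusted p = 8.4e-06). The mutant stayed below Ctrl, by less, and Ctrl itself was lower after RA. Piezo2, a mechanosensitive channel, went from -3.42 to -0.94 and Ghr, the growth hormone receptor gene on chromosome 15, from -2.81 to -0.54. Loxl4, a lysyl oxidase gene, went from -2.17 to 0.63.

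The same pair of lines was measured at T24 after dTAG in place of DMSO, in 6 other libraries. There 3064 of 19068 features (16.1%) were DE. Of the 2114 DE genes outside chromosomes 11, 14 and 15, 2082 were tested in them, of which 2069 had the same sign, 1380 were DE in the same direction and 0 in the opposite one. Same-numbered dTAG libraries correlated in their deviations, and with the replicate block 3482 features were DE there. Of the 2082 genes 2072 then had the same sign, 1510 were DE in the same direction and 0 in the opposite one. Log2 fold changes there were -2.71 for Lef1, -2.72 for Pax6, -3.34 for Thbs1, -2.07 for Plagl1, 2.18 for Sycp3, -1.25 for Crabp2 and 1.22 for Cyp26b1, each DE. Cyp26a1 was again not DE (-0.26, adjusted p = 0.0262). Some genes named above as DE with DMSO were not DE with dTAG. Among them Otx2 (-0.17, adjusted p = 0.639), H1f0 (-0.20, adjusted p = 0.149) and mt-Co3 (-0.10, adjusted p = 0.834) had the opposite sign. Utf1 (0.22, adjusted p = 0.137) and Axin2 (-0.35, adjusted p = 0.017) kept their sign. So did others that lay below the fold threshold with dTAG. Among these were Tbx3 (0.46), Dppa5a (0.54), Ldha (0.52), Pfkp (0.56), Egr1 (-0.54) and H19 (-0.55). Hoxb1 (-0.80, adjusted p = 0.000527), Hoxb2 (-0.94, adjusted p = 0.000202) and Hoxb4 (-1.13, adjusted p = 1.53e-05), not DE with DMSO, were DE and lower with dTAG. The repeats named above as higher were not DE with dTAG. These were MMERGLN-int (-0.057, adjusted p = 0.624), MMERGLN_LTR (0.075, adjusted p = 0.581) and L1Md_A (0.565, adjusted p = 0.00114). The block changed none of these calls on single genes. Whether these differ between the treatments was not tested.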

How the data were processed

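RNA of 3 biological replicates per group was depleted of ribosomal RNA, made into stranded libraries and sequenced paired-end, according to the study's methods. The authors deposited raw counts per gene and per repeat subfamily, made with cutadapt 4.2, STAR and TEcount on mm10 (GRCm38), with reads of many alignments kept. Of the deposited counts, 18 columns were used: both lines at T0, at T24 and at T24 with dTAG. No column lacked a sample (0). A second table of other libraries was not used. DESeq2 was also named in the submitters' processing notes, and no comparison made with it was used here. Gene IDs were matched to symbols and positions in GENCODE M21 on GRCm38, with 260 of 55487 genes unmatched. Promoter letters were from RefSeq.

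Low features were removed with filterByExpr (at least 10 counts in enough libraries and 15 in all), and the rest scaled with TMM over genes and repeats, and tested with edgeR 4.0.16 (R 4.3.3, limma 3.58.1) by the quasi-likelihood test within the libraries of each comparison, with Benjamini-Hochberg adjustment over all tested features. DE means adjusted p below 0.01 and a log2 fold change over 0.58 in size. The script was checked on simulated counts. Depth (11967264 to 29229306 counts at T24) sets the precision of low genes, and TMM, which assumes that most genes do not differ, was repeated without chromosomes 11, 14 and 15. Alternatives were DESeq2 1.42.0, its size factors, other filters and fold thresholds, all 4 groups in 1 fit, each library left out and a replicate block. Same-numbered libraries of the dTAG pair correlated at 0.117, 0.379 and 0.219 in their deviations from the group means. Of these libraries 5 correlated best with their own number. At T24 and T0 not all correlations passed 0.1, but all 6 libraries correlated best with their own number. The block was kept as an alternative throughout, and values of single genes with dTAG are from the fit without it.

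Members and lists were chosen with earlier results of these data known. Named were Mcm2, Pole4 and the genes the study names for RA; the 10 DE genes outside chromosomes 11, 14 and 15 with the largest change in each direction, a mean of at least 5 CPM and groups that do not overlap; up to 4 DE members of each list in each direction, or the most abundant where none was DE; 5 features in each direction of the interaction; 3 abundant DE genes on each of chromosomes 11, 14 and 15; and 3 repeats in each direction. Named after their values were seen were Slc6a6, Stra8, Axin2, Bmp7, Cdh1, Cdkn1a, Cdx1, Cdx2, Ctnnb1, Dazl, Ddx4, Dkk1, Dnmt1, Dnmt3b, Duxf3, Eed, Eif2s3y, Ezh2, H19, Ldha, Mael, Mcm3 to Mcm7, Mdm2, MERVL-int, Mov10l1, Ndn, Peg3, Peg10, Peg13, Rara, Rxra, Sgce, Slc25a31, Stag3, Usp29 and Znrf3. Gm and Rik names were passed over in the choice by largest change, and its minimum of 5 CPM applied to the line with the higher mean. A few members of these lists are not reported here and were left out of the list counts.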

Additional observations from a re-analysis of the deposited data

Results flagged for a closer look

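For 45 of the named features the difference between the lines itself differed between T0 and T24, by edgeR's quasi-likelihood test of the interaction (adjusted p below 0.01 and a change larger in size than 0.58 on the log2 scale). This is what set them apart, and each value in parentheses below is the log2 fold change at T24 minus that at T0. No sample was tested as standing apart within its group, since groups hold 3 libraries.

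Among genes of retinoids and the early RA response the difference became lower, in Crabp2 (-2.32), Dhrs3 (-2.01), Stra8 (-1.30), Ncoa7 (-0.77), Lefty1 (-1.67) and Lefty2 (-1.19), and higher in Cyp26a1 (1.51). Among transcription factors it became lower in Meox1 (-3.01), Cphx1 (-2.84), Gata6 (-1.58), Lef1 (-1.53), Sox7 (-1.40), Meis1 (-1.08), Pou3f1 (-0.88) and Mycn (-0.78), and higher in Meis2 (1.09), Id2 (0.78), Sp5 (1.98), Mixl1 (2.36) and T (2.48). Signalling genes with a lower difference at T24 included Fgfr3 (-1.21), and Wnt3 (1.48) and Fgf8 (2.03) had a higher one.

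The imprinted genes Mest (-1.42), H19 (-1.04) and Peg3 (-0.65) had a lower difference at T24, as did the germline genes Tex19.1 (-0.71) and Sohlh2 (-0.63), the methyltransferase gene Dnmt3a (-0.67), the naive marker Pecam1 (-0.59), the cytochrome gene Cyp1b1 (-2.28) and 4930502E18Rik (-2.11), a gene with no further name. The keratin genes Krt7 (0.76), Krt18 (0.80) and Krt19 (1.02) and the collagen gene Col1a1 (0.96) had a higher one, together with the linker histone gene H1f0 (0.99) and the mitochondrial mt-Co3 (1.56). Among the remaining features the change was upward in Slc39a8 (2.91), Loxl4 (2.79), Piezo2 (2.48) and Ghr (2.26). The interferon-inducible Gbp2 (1.73), Gbp2b (2.10) and Gbp7 (1.73) were further below Ctrl at T0 than at T24.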

How the results depend on the processing

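The number of DE features at T24, 3238 as reported, was 2777 with DESeq2, 3233 with DESeq2 size factors, 3209 with TMM factors from genes outside chromosomes 11, 14 and 15, 3583 without a filter, 2830 with at least 10 counts in every library, 3178 with all 4 groups of T24 in 1 fit and between 2880 and 3107 with each library left out. Outside chromosomes 11, 14 and 15 the count, 2114 as reported, was 1748, 2108, 2078, 2391, 1798, 2061 and between 1840.0 and 2014, and 2080.0 with adjustment over those genes alone. The thresholds moved the counts most: with no fold threshold 6596 features, 4753 of them genes outside, were DE and 667 passed the interaction, and glmTreat against a 1.5-fold change left 1233 and 748. Leaving out features DE at T0 left 1230.0 and 876, by construction. The interaction, with 426 as reported, gave 461 with DESeq2, 427 with DESeq2 size factors, 413 with the stricter filter and between 305 and 423 with each library left out. The median of chromosome 11 was -0.48 with the stricter filter. Among members of the gene lists 160.0 were DE, against 149 with DESeq2, 160.0 with DESeq2 size factors and 157 with TMM from outside. In a fit added with the results known, 1881 protein-coding genes outside were DE.

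Deviations of same-numbered libraries at T24 correlated weakly, with r between 0.0374 and 0.0887, but each of the 6 correlated best with its own number. With the replicate block 3238 features were DE at T24, the same number as without it, 3154 of them shared between the fits, 2120.0 of them outside chromosomes 11, 14 and 15 and 161 in the gene lists. The block gave 506 in the interaction and 3482 in the dTAG libraries, which had 3064 without it and 2806 with DESeq2. Under the block Fgf8 (-1.08, adjusted p = 0.011) and Fgfr3 (-0.58) were no longer DE, and no other call on a named gene at T24 changed.

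Over 233 named features and 2306 values under these alternatives, 2204 kept direction and call, 76 lost the call, 6 gained it and 20 changed sign. The sign changes were in features that were not DE. With each library left out, log2 fold changes ran from -0.021 to 0.14 for Klf4, -0.095 to 0.030 for Tfcp2l1, -0.081 to 0.034 for Lefty1, -0.082 to 0.0062 for Cyp26a1, -0.40 to 0.0072 for Fgf5, -0.081 to 0.0032 for Sall4, -0.21 to 0.16 for Foxa2, -0.025 to 0.030 for Stra8, -0.023 to 0.095 for Dnmt3b and -0.084 to 0.24 for MERVL-int, and with DESeq2 Stra8 had -0.0033. Calls that were lost without a single library, with the range over all libraries left out and then the line and replicate numbers without which the call was lost, were those of Pole4 (-0.66 to -0.58, without Ctrl 3), Sox7 (0.52 to 0.76, without Ctrl 2 and MCM2-2A 2), Meis2 (-0.65 to -0.57, without MCM2-2A 1), Pax7 (1.12 to 2.1, without Ctrl 1 and 3 and MCM2-2A 1, 2 and 3), Cubn (-1.02 to -0.52, without Ctrl 1 and MCM2-2A 2), Tbx5 (1.57 to 2.33, without Ctrl 1 and 2 and MCM2-2A 1), Foxf1 (1.08 to 1.51, without Ctrl 2 and 3 and MCM2-2A 1, 2 and 3), Mixl1 (0.76 to 1.27, without Ctrl 1 and 2 and MCM2-2A 2), Zscan4b (0.81 to 1.54, without MCM2-2A 1), Zscan4e (0.71 to 1.62, without Ctrl 2 and 3 and MCM2-2A 1 and 3), Zscan4d (0.58 to 1.26, without Ctrl 2 and 3 and MCM2-2A 1 and 3), Id2 (-0.64 to -0.55, without Ctrl 3 and MCM2-2A 1), Fgf8 (-1.21 to -1.01, without any of the 6), Fgfr3 (-0.69 to -0.51, without Ctrl 1 and MCM2-2A 2 and 3), Cbx6 (0.55 to 0.68, without Ctrl 3 and MCM2-2A 1), Sohlh2 (-0.63 to -0.53, without Ctrl 2 and MCM2-2A 2), Dio3 (1.2 to 1.59, without Ctrl 1), mt-Nd6 (-0.83 to -0.51, without Ctrl 1 and MCM2-2A 1 and 2), MMERGLN_LTR (0.57 to 0.71, without MCM2-2A 3), Cdx2 (-0.78 to -0.49, without MCM2-2A 1 and 3), Duxf3 (0.73 to 0.93, without any of the 6), Sgce (-0.64 to -0.53, without Ctrl 1 and 2 and MCM2-2A 1 and 2) and Slc25a31 (0.57 to 0.72, without MCM2-2A 3). Calls were gained for Krt18 (-0.60 to -0.46, without MCM2-2A 3), Zic2 (-0.61 to -0.47, without Ctrl 1 and MCM2-2A 2 and 3), Cphx1 (-0.83 to -0.27, without Ctrl 1) and Ghr (-0.64 to -0.42, without Ctrl 3). In the interaction the calls of Pou3f1 (-1.07 to -0.69, without any of 4 of 12 libraries), Sox7 (-1.85 to -1.16, without any of 7 of 12 libraries), Pecam1 (-0.66 to -0.55, without any of 4 of 12 libraries), Ncoa7 (-0.93 to -0.70, without MCM2-2A T24 2), Meis1 (-1.26 to -0.95, without any of 6 of 12 libraries), T (2.15 to 2.85, without any of 9 of 12 libraries), Krt7 (0.64 to 0.85, without any of 9 of 12 libraries), Fgf8 (1.78 to 2.18, without MCM2-2A T24 2), Mycn (-1.03 to -0.66, without any of 6 of 12 libraries), Sohlh2 (-0.73 to -0.53, without any of 4 of 12 libraries), Cphx1 (-3.31 to -2.56, without any of 5 of 12 libraries), 4930502E18Rik (-2.65 to -1.74, without any of 7 of 12 libraries) and Gbp7 (1.53 to 1.92, without any of 5 of 12 libraries) were lost in the same way, and that of Mycn also with DESeq2 (-0.81). DESeq2 also left Pax7, Cubn, Tbx5, Foxf1, Mixl1, Zscan4d, Zscan4e, Fgf8, Duxf3 and mt-Nd6 uncalled. For features at a few counts, depth limits what 3 libraries can show.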

Other observations

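Some groups of genes outside the lists also differed, and were named after their values were seen. The guanylate-binding proteins are GTPases that interferon induces. Of 6 tested Gbp genes, 5 were lower in Ctrl MCM2-2A at T24 and 0 higher, where 7.60% of all tested features were lower. Gbp2 was at 22.8, 23.5 and 24.9 CPM in Ctrl and 6.21, 4.84 and 6.53 CPM in Ctrl MCM2-2A (a log2 fold change of -2.06, adjusted p = 2.21e-10). Gbp2b was at 15.2, 18.3 and 17.7 CPM in Ctrl and 3.05, 3.81 and 4.49 CPM in Ctrl MCM2-2A (a log2 fold change of -2.19, adjusted p = 1.04e-09). Gbp7 was at 3.7 ± 0.179 CPM in Ctrl and 1.18 ± 0.298 CPM in Ctrl MCM2-2A (a log2 fold change of -1.63, adjusted p = 6.2e-06). At T0 the differences were larger, with log2 fold changes of -3.79 for Gbp2, -4.3 for Gbp2b and -3.37 for Gbp7. In the dTAG libraries they were -1.26, -1.17 and -1.17. Reads may be shared between these paralogs.

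The metallothioneins, which bind zinc and other metals, were higher. Mt1 was at 32.1, 36.5 and 29.9 CPM in Ctrl and 97.4, 105 and 103 CPM in Ctrl MCM2-2A (a log2 fold change of 1.62, adjusted p = 2.23e-11). Mt2 was at 50.3, 63.2 and 56.8 CPM in Ctrl and 162, 189.9 and 159 CPM in Ctrl MCM2-2A (a log2 fold change of 1.59, adjusted p = 1.62e-10). Both were also higher at T0 (1.34 and 1.38) and in the dTAG libraries (1.58 and 1.46). The inducible heat shock genes Hspa1a and Hspa1b are near-identical copies, so their values are uncertain one by one. Hspa1a was at 6.28, 4.25 and 4.11 CPM in Ctrl and 29.9, 13.8 and 14.5 CPM in Ctrl MCM2-2A (a log2 fold change of 1.96, adjusted p = 4.97e-06). Hspa1b was at 13.2, 8.8 and 10.1 CPM in Ctrl and 51.1, 29 and 27.3 CPM in Ctrl MCM2-2A (a log2 fold change of 1.73, adjusted p = 1.29e-06). In both genes replicate 1 was the highest of the mutant libraries. Ass1, which makes the precursor of arginine, was at 82.7, 80.4 and 73.1 CPM in Ctrl and 258, 266 and 252 CPM in Ctrl MCM2-2A (a log2 fold change of 1.71, adjusted p = 1.01e-12), with log2 fold changes of 1.72 at T0 and 1.91 in the dTAG libraries.

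Sfmbt2, a polycomb-related gene on chromosome 2 that hosts a large microRNA cluster, was at 90.4, 98.4 and 98.3 CPM in Ctrl and 209, 215 and 224 CPM in Ctrl MCM2-2A (a log2 fold change of 1.17, adjusted p = 3.31e-11). Of 21 tested microRNA loci within it, all 21 had a log2 fold change above 0. Of these 5 were DE, all higher, where 9.71% of all tested features were higher. The loci lie inside the host gene and are near copies of each other, so reads of the host and of single loci cannot be told apart.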
